A study of Mus musculus with 12 samples.

Results

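The genes that flank Bak1 on mouse chromosome 17 were followed through their array probes. The members were set by a rule on position alone: every probe that the deposited annotation places on chromosome 17 with a start within about 20 Mb of Bak1 on either side. The rule itself was chosen with earlier results of these data known. Bak1 itself was left out, and so was the stretch that holds the major histocompatibility complex, whose probes lie 6.36 to 10.34 Mb above Bak1. This gave 956 of the 45281 probes on the array, from 599 genes. Of these, 443 probes of 292 genes were measured, meaning above background at a detection p under 0.05 on at least 3 of the 12 arrays, against 18867 probes in the whole table. Among the measured probes, 302 were above background on all 12 arrays and 4 in 1 group only, 240 lay below Bak1 and 203 above it, and 103 genes had 2 or more measured probes.

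The study sorted Lineage-Kit+CD45.2+ cells, which are enriched for blood stem and progenitor cells, from the femur and tibia of chimeric mice. The marrow of these mice had been rebuilt with fetal liver cells of embryonic day 13.5, and was collected 12 to 16 weeks after the transplant. The 4 groups of 3 arrays were Bak/Bax DKO, which lacks both Bak and Bax, with WT experiment 2 as its wild type, and Casp9 KO, which lacks caspase-9, with WT experiment 1 as its wild type. The labels give the strain C57BL/6 for all 12 samples. Each knockout shared a beadchip with its own wild type, so the 2 comparisons have no array in common. All cells are donor-derived cells in a host, and the series text calls the samples of a group independent without saying whether each came from its own animal. The p-values cover only the variation among these arrays, which may be technical.

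Bak1 encodes Bak, which together with Bax opens the outer mitochondrial membrane during apoptosis. In a mouse that carries a targeted allele, DNA close to the target is inherited with it, because crossovers seldom separate near neighbours. Where the targeted stem cells came from another strain, that DNA can carry the sequence variants of that strain. Each array probe is a short DNA that binds 1 stretch of a transcript, so its signal follows both the amount of transcript and the match to that stretch. The strain of the DNA beside Bak1 and the sequences under the probes were not tested.

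The promoter windows below belong to Bak1 and to the genes of 3 flanking probes with large falls in Bak/Bax DKO, and show the reference sequence from which these transcripts start. They are the 250 bases before the start in RefSeq (GRCm38.p6), all on the minus strand, read 5′ to 3′. They lie at chr17:27028628-27028877 for Bak1, chr17:22867135-22867384 for Zfp945, chr17:24724424-24724673 for Ndufb10 and chr17:24895088-24895337 for Eme2. Capitals mark CCGGAAG, the core bound by ETS transcription factors, which was searched on both strands.
Bak1: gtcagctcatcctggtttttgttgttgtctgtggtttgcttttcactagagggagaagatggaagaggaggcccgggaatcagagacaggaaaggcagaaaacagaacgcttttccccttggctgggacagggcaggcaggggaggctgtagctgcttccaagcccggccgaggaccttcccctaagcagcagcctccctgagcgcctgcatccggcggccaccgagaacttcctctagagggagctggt
Zfp945: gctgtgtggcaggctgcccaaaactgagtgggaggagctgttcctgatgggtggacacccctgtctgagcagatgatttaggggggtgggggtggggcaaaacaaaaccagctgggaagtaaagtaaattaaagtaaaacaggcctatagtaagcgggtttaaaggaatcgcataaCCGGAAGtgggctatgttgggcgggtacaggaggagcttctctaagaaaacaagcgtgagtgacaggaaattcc
Ndufb10: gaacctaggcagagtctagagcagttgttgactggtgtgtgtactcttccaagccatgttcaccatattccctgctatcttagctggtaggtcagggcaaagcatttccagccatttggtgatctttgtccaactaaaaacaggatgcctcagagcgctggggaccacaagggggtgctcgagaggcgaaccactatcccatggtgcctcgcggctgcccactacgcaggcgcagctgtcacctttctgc
Eme2: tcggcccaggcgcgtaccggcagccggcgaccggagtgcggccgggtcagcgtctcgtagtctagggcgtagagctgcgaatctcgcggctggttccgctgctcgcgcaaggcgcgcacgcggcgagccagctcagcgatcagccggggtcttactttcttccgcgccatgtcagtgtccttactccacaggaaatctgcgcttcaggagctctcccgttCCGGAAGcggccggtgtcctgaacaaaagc
The 4 windows held 8, 5, 7 and 32 CpG dinucleotides in that order, and the core stood once in the windows of Zfp945 and Eme2. The window of Tedc2, whose probe fell slightly more than that of Eme2, is not shown and held 6 CpG and no core. Over the 15 of 19 genes with a probe called in Bak/Bax DKO that had a window, the median was 9 CpG. The core stood in 2 of these windows (13.3%), which were those of Zfp945 and Eme2. Over 223 of the 273 other measured flanking genes the median was 15 CpG and 39 windows (17.5%) held it, against 6 CpG and 1906 windows (7.05%) over all 27025 genes of the table. These counts are descriptions of the windows. Probe positions below are those of the deposited files, for which the sources used here give no build. They are not on the GRCm38.p6 scale of the promoter windows, and no probe was assigned to an exon or intron.

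The arrays differed in quality. Mean bead intensity was 234.5 on Bak/Bax DKO replicate 2 and 321.5 to 522.0 on the other 11 arrays, and 35.7% to 39.7% of probes were above background. Bak/Bax DKO replicate 2 correlated with the other arrays at 0.856 to 0.869 across probes, and the other 11 arrays among themselves at 0.978 or more. Counts of calls over the flanking probes and by distance are therefore given with and without this array, and several other counts with it only. In Bak/Bax DKO the progenitor marker Gata2 rose (log2 change 0.98, adjusted p = 0.00824), and Kit had 0.70 (adjusted p = 0.0556). Of 6 measured B lineage markers 3 fell (Vpreb1, Igll1 and Cd79a), with a summed level of 9.26 to 9.85 in Bak/Bax DKO and 10.04 to 10.56 in WT experiment 2. The summed level of 5 measured neutrophil markers was 12.97 to 13.94 in Bak/Bax DKO and 14.75 to 14.79 in WT experiment 2, without overlap, and their log2 changes were −3.72 to −1.15 (adjusted p = 0.0794 to 0.348). Nkg7, the only measured marker of 5 for T and NK cells, fell, Cpa3 of 3 measured mast and basophil markers rose, and Cd3e, Cd3g, Cd8a and Ncr1 were not measured. In Casp9 KO 2 of these 3 mast and basophil markers rose and none fell. Their summed level was 11.44 to 11.76 in Casp9 KO and 10.92 to 11.11 in WT experiment 1. No B lineage or neutrophil marker was called in Casp9 KO. The part of cell composition in the results below was not tested, and in bulk samples fewer cells of a type and less RNA per cell cannot be told apart.

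The Bak1 probe (ILMN_2945835, chromosome 17, 27157109 to 27157158, minus strand) marked the centre. Its normalized log2 intensity was 4.60, 4.52 and 4.75 in Bak/Bax DKO, not above background on any of these arrays, against 6.27, 6.59 and 6.74 in WT experiment 2. The groups did not overlap, and Bak1 was at least 3.09-fold lower in Bak/Bax DKO (log2 change −1.91, SE 0.15, adjusted p = 1.2e-04 by limma). Here and below, a bound sets the mean of the brighter group against, on each array of the dimmer group, the lowest signal above background or the probe's own signal, whichever was higher. In Casp9 KO the log2 change of Bak1 was 0.27 (adjusted p = 0.656).

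Of the 443 measured flanking probes, 22 probes of 19 genes (4.97%) passed an adjusted p of 0.05 in Bak/Bax DKO against WT experiment 2, where 1.82% of all measured probes passed. Of these, 9 rose and 13 fell, against 1.43% of all probes that rose and 0.392% that fell. In Casp9 KO against WT experiment 1, 3 flanking probes (0.677%) passed, against 1.14% of all probes. Of these, 1 rose and 2 fell, against 0.88% and 0.265% of all probes, and no flanking probe passed in both knockouts. Without Bak/Bax DKO replicate 2, 37 flanking probes (8.35%) passed in Bak/Bax DKO, 21 of the 22 among them, against 2.98% of all probes. In Casp9 KO, 12 flanking probes passed without that array, against 4.25% of all probes.

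**Figure D1:**
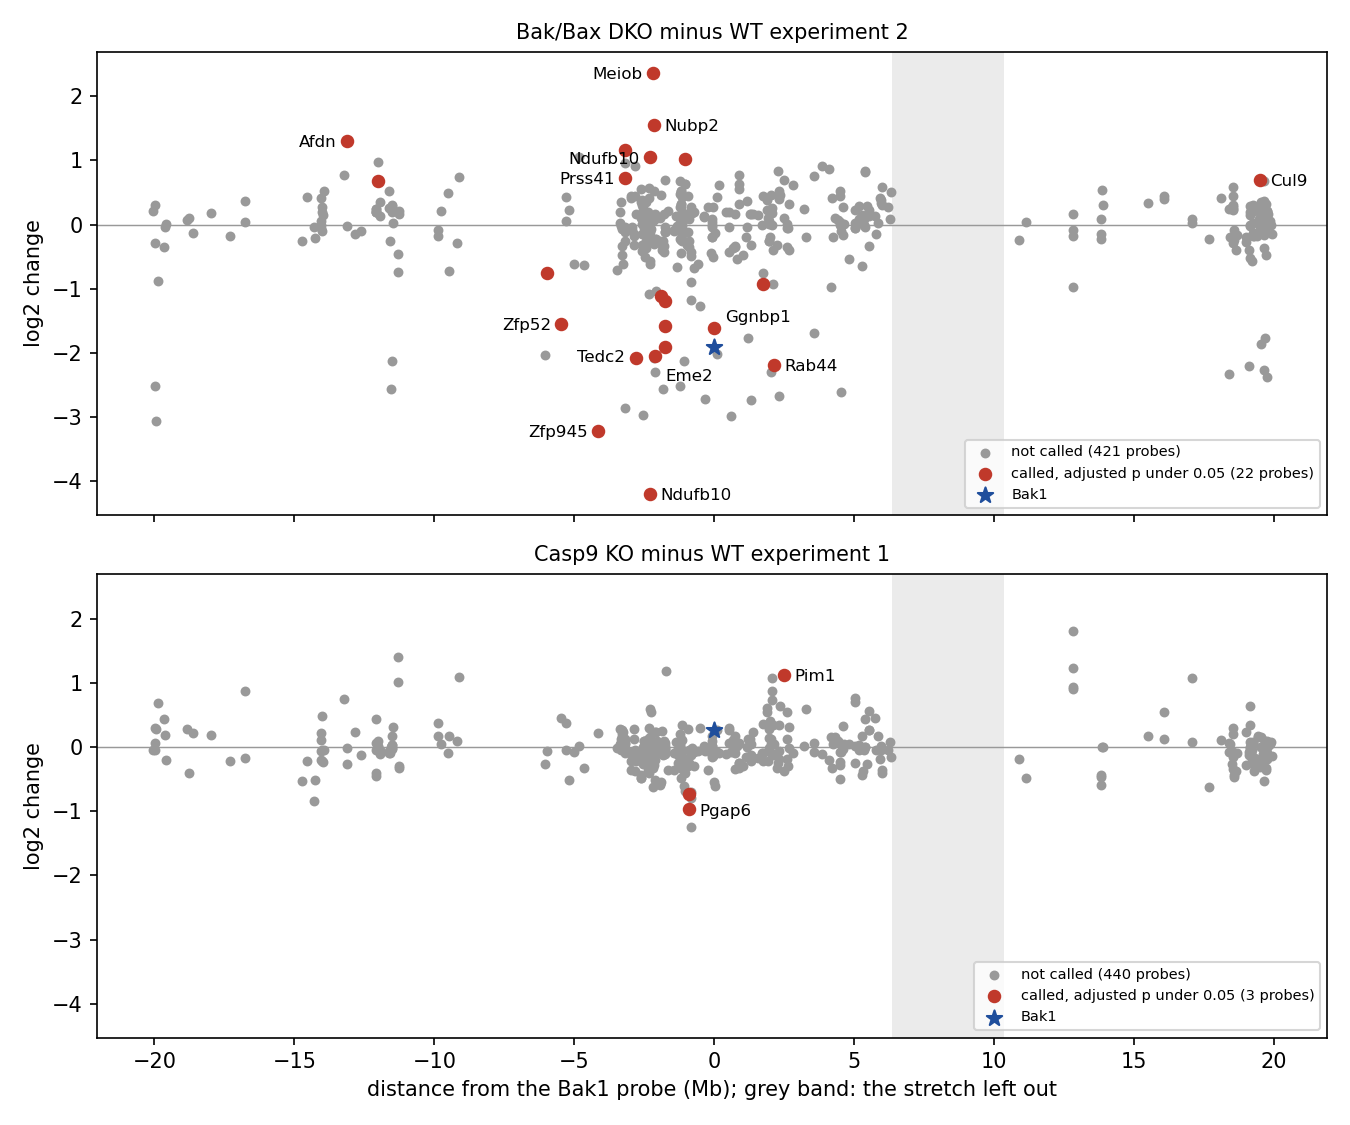
Log2 change of the 443 measured flanking probes against distance from the Bak1 probe in Mb, for Bak/Bax DKO minus WT experiment 2 (upper panel) and Casp9 KO minus WT experiment 1 (lower panel). Red points passed an adjusted p of 0.05 (22 and 3 probes), the star is Bak1, and the grey band is the stretch left out; most red points of the upper panel lie between 6 Mb below and 2.2 Mb above Bak1.

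Most of the probes called in Bak/Bax DKO, 15 of 22, lay within 5 Mb below Bak1. The shares by distance given first take both sides together. The share was 7 of 128 probes (5.47%) within 2 Mb, 10 of 127 (7.87%) from 2 to 5 Mb, 2 of 44 (4.55%) from 5 to 10 Mb, 2 of 52 (3.85%) from 10 to 15 Mb and 1 of 92 (1.09%) from 15 to 20 Mb. Within 5 Mb it was 17 of 255 probes (6.67%), and beyond 5 Mb 5 of 188 (2.66%). Below Bak1 19 of 240 probes (7.92%) were called, and above it 3 of 203 (1.48%). On the lower side the calls were 6 of 87 probes within 2 Mb and 9 of 82 from 2 to 5 Mb. Farther below they were 2 of 14 from 5 to 10 Mb, 2 of 41 from 10 to 15 Mb and 0 of 16 beyond. The share below Bak1 thus did not fall with distance up to 10 Mb, where probes were few. On the upper side 2 of 86 probes (2.33%) within 5 Mb were called, against 1.82% of all probes. In Casp9 KO the 3 calls all lay within 5 Mb, and 0 of 188 probes beyond 5 Mb passed in limma. Of those 188 probes, 26 had an unadjusted p under 0.05, against 10.1% of all probes in this comparison.

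Over a span chosen after the calls were seen, from 6 Mb below to 2.2 Mb above Bak1, 19 of 225 probes (8.44%) were called in Bak/Bax DKO, against 3 of 218 (1.38%) in the rest of the window. On the rest of chromosome 17 outside the window 4 of 306 probes (1.31%) were called, and on other chromosomes 302 of 17867 (1.69%). In the stretch around the major histocompatibility complex that was left out, 14 of 218 probes (6.42%) were called in Bak/Bax DKO and 15 of 218 (6.88%) in Casp9 KO. The median size of the log2 change in Bak/Bax DKO was 0.269 within 2 Mb, 0.34 from 2 to 5 Mb, 0.256 from 5 to 10 Mb, 0.224 from 10 to 15 Mb and 0.221 from 15 to 20 Mb, against 0.224 over all probes. In Casp9 KO it was 0.133, 0.137, 0.172, 0.219 and 0.151 at these distances, against 0.154 over all probes, so that it was largest from 10 to 15 Mb.

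Without Bak/Bax DKO replicate 2 the called shares were 9 of 128 probes within 2 Mb, 21 of 127 (16.5%) from 2 to 5 Mb, 4 of 44 from 5 to 10 Mb, 1 of 52 from 10 to 15 Mb and 2 of 92 from 15 to 20 Mb. Within 5 Mb that made 30 of 255 probes (11.8%), and beyond 5 Mb 7 of 188 (3.72%). Below Bak1 it made 31 of 240 probes (12.9%), and above it 6 of 203 (2.96%), against 2.98% of all probes. On the lower side these were 8 of 87 within 2 Mb, 17 of 82 from 2 to 5 Mb and 4 of 14 from 5 to 10 Mb. On the upper side 5 of 86 probes (5.81%) within 5 Mb were called. Casp9 KO shares by distance are given only for the fit with all 12 arrays. Log2 changes larger than 1 in either direction were found at 49 flanking probes (11.1%) with this array, against 7.26% of all probes, and at 23 (5.19%) without it, against 1.84%. In Casp9 KO 10 flanking probes (2.26%) exceeded 1, against 1.69% of all probes.

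**Figure D2:**
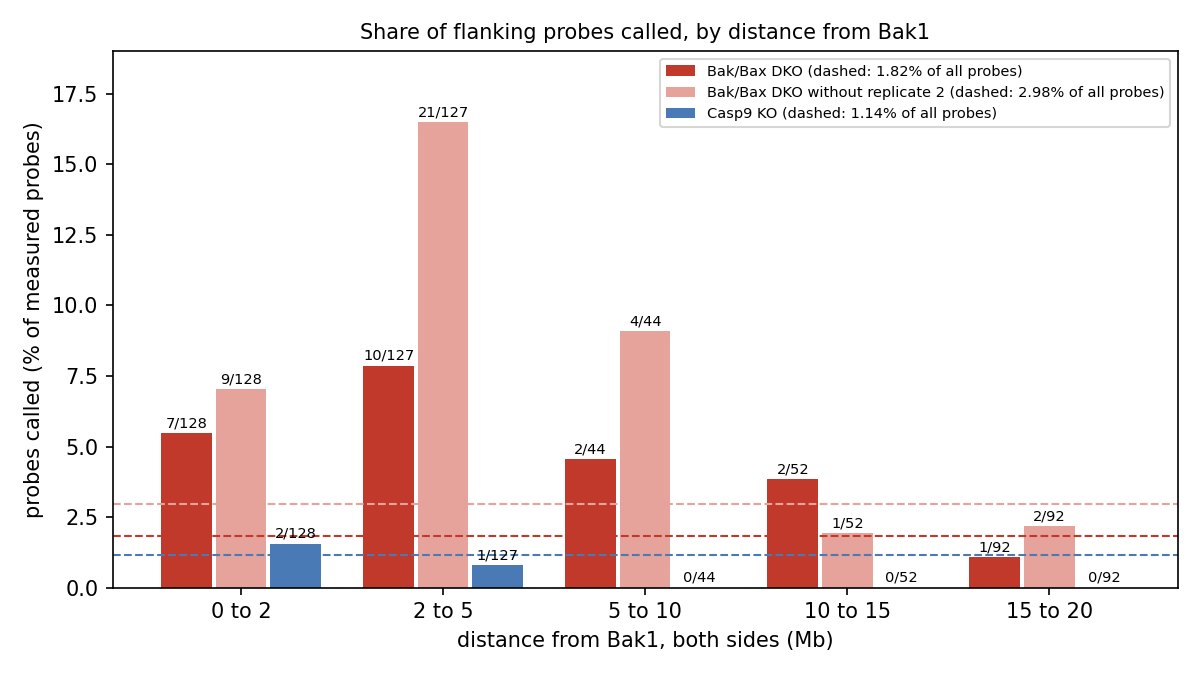
Percent of measured flanking probes called, by distance from Bak1 in Mb on both sides, each knockout against its wild type. Bars are Bak/Bax DKO, Bak/Bax DKO without replicate 2, and Casp9 KO in the fit with all 12 arrays. Without Bak/Bax DKO replicate 2, 12 flanking probes passed in Casp9 KO, and their distances are not drawn. Numbers over bars are probes called of probes measured, and dashed lines are the shares over all measured probes (1.82%, 2.98% and 1.14%); the bars of Bak/Bax DKO are tallest from 2 to 5 Mb (10 of 127 probes, and 21 of 127 without replicate 2).

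The deepest fall was that of one probe of Ndufb10, a subunit of mitochondrial complex I. Probe ILMN_2691261 (24859079 to 24859128, minus strand, 2.298 Mb below Bak1) read 5.31, 6.19 and 5.32 in Bak/Bax DKO, against 9.5, 10.09 and 9.83 in WT experiment 2. All 3 knockout arrays lay below all 9 other arrays, and the log2 change was −4.20 (SE 0.25, adjusted p = 1.2e-05). The other Ndufb10 probe, ILMN_2900216 (24859070 to 24859119), shares 41 bases of position with it. It read 9.10, 9.65 and 9.44 in Bak/Bax DKO, against 8.07, 8.38 and 8.61 in WT experiment 2, so that the groups did not overlap and the knockout was the higher one. Its log2 change was 1.05 (SE 0.19, adjusted p = 0.0197), a call that was lost without Bak/Bax DKO replicate 3, WT experiment 2 replicate 1 or WT experiment 2 replicate 2. Its knockout arrays overlapped the 9 other arrays, since the arrays of experiment 1 read 8.81 to 9.28. Overlapping probes of one gene thus changed in opposite directions, and no direction can be given for Ndufb10 as a gene.

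Zfp945, which encodes a zinc finger protein, was measured by 1 probe (ILMN_1234412, 4.153 Mb below Bak1). It read 4.39, 4.47 and 4.44 in Bak/Bax DKO, not above background, against 7.39, 7.90 and 7.68 in WT experiment 2. The probe was at least 6.72-fold lower (log2 change −3.22, SE 0.14, adjusted p = 8.2e-07), and the 6 arrays of experiment 1 read 6.52 to 6.90.

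Tedc2, which encodes a protein that acts with the rare tubulins of centrioles, lay 2.805 Mb below Bak1. Its probe read 4.35, 4.38 and 4.29 in Bak/Bax DKO, against 6.14, 6.65 and 6.47 in WT experiment 2. It was above background on no Bak/Bax DKO array and on every other array, and was at least 2.85-fold lower (log2 change −2.08, SE 0.18, adjusted p = 2.1e-04).

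Eme2, a partner of the nuclease Mus81 in cutting branched DNA, lay 2.128 Mb below Bak1. Its probe read 4.32, 4.36 and 4.31 in Bak/Bax DKO, against 6.01, 6.67 and 6.44 in WT experiment 2. Without overlap between groups, the probe was at least 2.77-fold lower (log2 change −2.05, SE 0.20, adjusted p = 5.1e-04). A probe that the files link to Gm5931 (ILMN_2417991, 25397479 to 25397528) read 4.70, 4.47 and 4.67 in Bak/Bax DKO, against 6.53, 6.48 and 6.53 in WT experiment 2. It was at least 3.05-fold lower (log2 change −1.90, SE 0.13, adjusted p = 3.8e-05). RefSeq places Gm5931 on another chromosome, so the gene behind this probe is uncertain.

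Ggnbp1, which encodes a binding partner of gametogenetin in male germ cells, lies next to Bak1, and the RefSeq intervals of both genes overlap. The probe 2.1 kb below that of Bak1 (ILMN_2444799) read 4.28, 4.32 and 4.32 in Bak/Bax DKO, against 5.60, 5.75 and 6.41 in WT experiment 2. It was not above background on any Bak/Bax DKO array and at least 2.02-fold lower (log2 change −1.61, SE 0.25, adjusted p = 0.00846). The second Ggnbp1 probe, 16.1 kb above that of Bak1, read 6.83, 7.67 and 6.82 in Bak/Bax DKO, against 7.47, 7.11 and 7.12 in WT experiment 2. These groups overlapped (log2 change −0.13, adjusted p = 0.813). The fall at the first probe was not separated from the change in Casp9 KO, −0.55, by the test of the difference of effects (adjusted p = 0.165). The difference between the effects of both probes did not pass the sister-probe test described below (adjusted p = 0.22).

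The remaining falls were smaller or less firm. Both probes of Baiap3, which encodes a protein of the Munc13 family in vesicle release, fell: ILMN_2435996 read 5.29, 5.27 and 5.58 in Bak/Bax DKO, against 7.20, 6.93 and 6.75 in WT experiment 2. Its log2 change was −1.58 (SE 0.17, adjusted p = 8.0e-04), and that of ILMN_2480021, which shares 39 bases of position with it, −1.19 (adjusted p = 0.0123, lost without WT experiment 2 replicate 1). Rab44, a member of the Rab family of vesicle GTPases 2.128 Mb above Bak1, read 8.60, 7.54 and 9.26 in Bak/Bax DKO, against 10.84, 10.63 and 10.51 in WT experiment 2. There was no overlap (log2 change −2.19, SE 0.34, adjusted p = 0.00874), but this probe is one of those the authors marked for filtering. The second Rab44 probe had a log2 change of −0.92 (adjusted p = 0.111).

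The zinc finger genes Zfp52 and Zfp160 lay 5.458 and 5.992 Mb below Bak1, each with 1 measured probe that the authors marked for filtering. Zfp52 read 4.65, 4.52 and 5.12 in Bak/Bax DKO, against 6.47, 6.27 and 6.19 in WT experiment 2 (log2 change −1.55, adjusted p = 0.00656). Zfp160 had a log2 change of −0.76 (adjusted p = 0.0331); it is the one call outside the rule for naming and is given to complete the 13 falls. Telo2, which helps to assemble kinases such as mTOR and ATM, had one probe that fell (−1.11, adjusted p = 0.0445) and one at 0.46 (adjusted p = 0.362), both marked for filtering. Mapk13, the delta form of the p38 stress kinases, fell at one probe by at least 1.69-fold (log2 change −0.92, adjusted p = 0.0349), and the other had −0.76 (adjusted p = 0.117). The calls of Zfp160, Telo2 and Mapk13 each held in 3 of the 12 fits that left out 1 array. Those fits included arrays of experiment 1, whose removal changes only the shared estimate of the spread for this comparison.

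Among the 9 rises, the largest was that of Meiob, which encodes a DNA-binding protein of meiotic recombination. Its single measured probe (ILMN_1217280, 2.181 Mb below Bak1) read 7.0, 7.73 and 6.90 in Bak/Bax DKO, against 4.96, 4.69 and 4.85 in WT experiment 2. All knockout arrays lay above all 9 other arrays (log2 change 2.37, SE 0.24, adjusted p = 5.1e-04), and the probe was above background on 1 of 3 WT experiment 2 arrays.

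Nubp2, which takes part in building iron-sulfur clusters in the cytosol, had 3 measured probes 2.137 Mb below Bak1. ILMN_2925570 read 9.64, 10.43 and 9.77 in Bak/Bax DKO, against 8.22, 8.49 and 8.46 in WT experiment 2, without overlap (log2 change 1.56, SE 0.19, adjusted p = 0.00295). ILMN_2925567 had a log2 change of 0.52 (adjusted p = 0.076; 0.61 and 0.0246 without Bak/Bax DKO replicate 2). ILMN_2723438 read 10.14, 4.22 and 10.12 in Bak/Bax DKO, against 9.98, 10.34 and 10.39 in WT experiment 2. The log2 change of ILMN_2723438, −2.08 (adjusted p = 0.436), thus rests on Bak/Bax DKO replicate 2.

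Both probes of Prss41, which encodes a serine protease, rose 3.179 to 3.183 Mb below Bak1. ILMN_1244203 read 5.37, 5.64 and 5.46 in Bak/Bax DKO, against 4.35, 4.37 and 4.26 in WT experiment 2. It was above background on the 3 knockout arrays and on none of the other 9, and at least 1.52-fold higher (log2 change 1.16, SE 0.12, adjusted p = 5.8e-04). This probe thus passed the filter of 3 arrays only through the group where it was high, and its call is no independent support. ILMN_2650180 was at least 1.16-fold higher (log2 change 0.73, adjusted p = 0.0146, lost without WT experiment 2 replicate 1 or 3).

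The last 4 rises each had sister probes that did not pass. Afdn, which encodes the junction protein afadin and lies 13.115 Mb below Bak1, read 7.05, 6.86 and 6.81 in Bak/Bax DKO, against 5.55, 5.76 and 5.49 in WT experiment 2. Its log2 change was 1.31 (adjusted p = 0.0158, lost without WT experiment 2 replicate 1 or 3), and its other probes had 0.77 and −0.02. Rab11fip3, an effector of recycling endosomes, had 1.03 (adjusted p = 0.0331) beside 0.64 and −0.31 at its other probes. Cul9, a cullin of ubiquitin ligases 19.481 Mb above Bak1, had 0.70 (adjusted p = 0.0297) beside −0.04. Ermard, a protein of the endoplasmic reticulum, was at least 1.3-fold higher at one probe (log2 change 0.68, adjusted p = 0.0497) beside 0.35 and 0.14. The calls of Rab11fip3, Cul9 and Ermard held in 3, 4 and 1 of the 12 fits that left out 1 array.

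**Figure D3:**
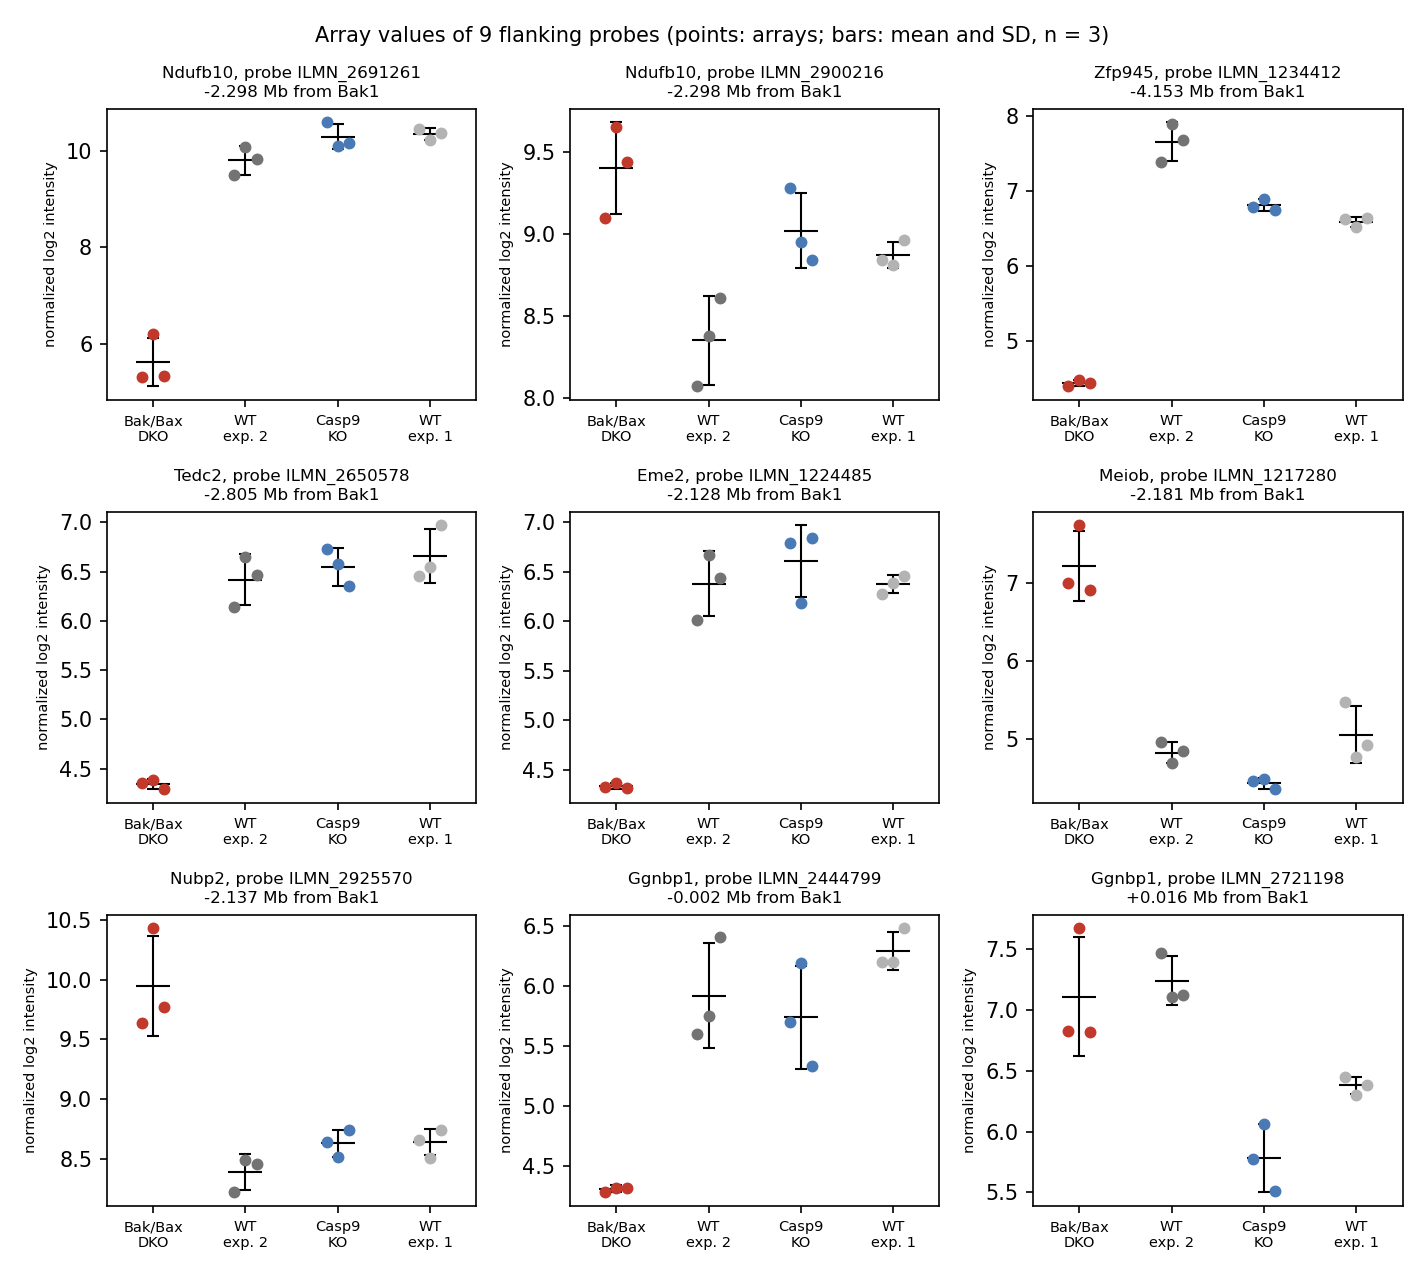
Normalized log2 intensity of 9 flanking probes on the 12 arrays, with Bak/Bax DKO left of WT experiment 2 and Casp9 KO left of WT experiment 1. Points are arrays and bars are mean and SD (n = 3 per group); vertical axes differ between panels and do not start at 0. Both Ndufb10 probes appear side by side, at 5.31 to 6.19 and at 9.10 to 9.65 in Bak/Bax DKO.

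The groups did not overlap at any of the 22 called probes. Over all flanking probes they did not overlap at 117 of 443 in Bak/Bax DKO, where 17.3% of all measured probes did not, and at 116 in Casp9 KO, where 23.8% did not. At 19 of the 22 called probes, all Bak/Bax DKO arrays lay outside the range of the 9 other arrays. The 22 probes were called from these same arrays, so both counts follow in part from that choice and are no further support. Over all flanking probes this held for 51 (11.5%), against 7.04% of all measured probes. The call held in each of the 12 fits that left out 1 array for 12 of the 22 probes, from Ndufb10, Zfp945, Rab44, Tedc2, Eme2, Gm5931, Ggnbp1, Baiap3, Zfp52, Meiob, Nubp2 and Prss41. The Prss41 probe among them was measured only through the Bak/Bax DKO arrays.

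The effects were also compared between knockouts. The log2 change in Casp9 KO was at most 0.62 in size at the 22 probes. Of them, 3 had an unadjusted limma p under 0.05 in Casp9 KO, against 10.1% of all probes. The difference of the 2 effects passed at 17 flanking probes (3.84%), against 1.49% of all probes. Of these, 7 were positive and 10 negative, against 0.859% and 0.631% of all probes, and 16 were among the 22 calls in Bak/Bax DKO. Without Bak/Bax DKO replicate 2 the difference passed at 39 flanking probes, against 5.28% of all probes. The calls in Casp9 KO were of other genes. Pgap6, a phospholipase that acts on GPI-anchored proteins, read 7.1, 6.99 and 6.99 at ILMN_3008238 in Casp9 KO, against 7.90, 8.07 and 8.01 in WT experiment 1. The groups did not overlap (log2 change −0.97, SE 0.14, adjusted p = 0.00639). A second Pgap6 probe had −0.73 (adjusted p = 0.0295, lost without Casp9 KO replicate 2 or 3 or any of the 6 wild-type arrays), and the remaining one −0.05 (adjusted p = 1).

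Pim1, a kinase gene that cytokine signals switch on, read 5.94, 5.48 and 5.73 at ILMN_2702406 in Casp9 KO, against 4.72, 4.54 and 4.51 in WT experiment 1. It was above background on no WT experiment 1 array and at least 1.67-fold higher in Casp9 KO (log2 change 1.13, SE 0.16, adjusted p = 0.00416). In Bak/Bax DKO the same probe had 0.69 (adjusted p = 0.0547), and the difference of the 2 effects did not pass (adjusted p = 0.384). A second Pim1 probe, marked for filtering, had −0.37 in Casp9 KO (adjusted p = 0.761).

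The immediate neighbours of Bak1 mostly gave small values in Bak/Bax DKO. Below Bak1, the probes of Zbtb9, Cuta, Kifc5b (a kinesin) and Bnip1 (a vesicle SNARE protein) lay 44.1 to 229.2 kb away and had log2 changes between −0.51 and 0.27, none with an adjusted p under 0.429. Above it, Itpr3, an IP3-gated calcium channel, had 0.43 (adjusted p = 0.22) and Grm4, a glutamate receptor, 0.19 (adjusted p = 0.669). The Grm4 probe was above background on 1 Bak/Bax DKO array and on no WT experiment 2 array, so its small value says little. Lemd2, a protein of the inner nuclear membrane 169.6 kb above Bak1, read 11.42, 11.55 and 11.14 in Bak/Bax DKO, against 10.96, 10.70 and 10.58 in WT experiment 2. The groups did not overlap, but the difference did not pass (log2 change 0.62, SE 0.16, adjusted p = 0.0917). Uqcc2, an assembly factor of complex III 102.5 kb above Bak1, read 11.79, 6.0 and 11.97 in Bak/Bax DKO, against 11.71, 11.95 and 12.13 in WT experiment 2. Its log2 change of −2.01 (SE 1.2, adjusted p = 0.44) came from replicate 2.

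Position alone set the window edges. Just inside the lower edge Rsph3a had a log2 change of 0.22 in Bak/Bax DKO and just outside it Ezr had −0.03; at the upper edge Ubr2 had −0.15 inside and 0.22 outside. At the stretch left out, AK011718 had 0.51 just below it and Zfp101 −0.65 just inside it, while Olfr128 had −0.24 just above it and H2-M3 −0.11 just inside it. None of these 8 probes passed.

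Leaving out Bak/Bax DKO replicate 2 added 16 flanking probes to the calls, 13 of them within 5 Mb. These genes were chosen after their values were seen. Gfer, a sulfhydryl oxidase of mitochondria 2.327 Mb below Bak1, read 11.34, 4.29 and 11.30 in Bak/Bax DKO, against 10.01, 10.12 and 10.05 in WT experiment 2. Its log2 change was 1.26 without replicate 2 (adjusted p = 9.5e-05) and −1.08 with it (adjusted p = 0.729). Glo1, which detoxifies methylglyoxal, read 12.38, 4.24 and 12.43 in Bak/Bax DKO, against 11.36, 11.36 and 11.40 in WT experiment 2. Its log2 change was 1.04 without replicate 2 (adjusted p = 8.4e-04) and −1.69 with it (adjusted p = 0.63). In both genes that one array lay far below the other 11, and the sign of the change turned with it. Both overlapping probes of Gnptg, a subunit of the enzyme that tags lysosomal proteins, were added as falls (−0.75 and −0.70), as were Msrb1, a methionine sulfoxide reductase (−0.94), and Flywch2 (−0.97).

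Sister probes were compared within each array: each other measured probe of a gene minus its brightest probe. Of 151 such pairs from 103 flanking genes, 1 passed in Bak/Bax DKO, against 0.129% of the 6956 pairs in the whole table. It was the Ndufb10 pair, whose effects differed by 5.25 (SE 0.19, adjusted p = 7.4e-07). The call held in all 12 fits that left out 1 array. In Casp9 KO no flanking pair passed in limma, against 0.0431% of all pairs. An unadjusted p under 0.05 was found in 12 of the 151 flanking pairs, and the share over all pairs is not given here. Without Bak/Bax DKO replicate 2, 3 flanking pairs passed in Bak/Bax DKO, against 0.244% of all pairs, and 1 in Casp9 KO, against 0.23%.

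The 2 pairs added without that array were of Srrm2 and Rab11fip3. Srrm2 encodes a scaffold protein of the spliceosome. Its probe ILMN_2729870 read 9.57, 9.99 and 10.57 in Bak/Bax DKO, against 9.10, 9.07 and 9.09 in WT experiment 2. Its probe ILMN_3102072 read 9.31, 10.10 and 10.04 in Bak/Bax DKO, against 10.08, 10.13 and 10.03 in WT experiment 2. The first was higher on every knockout array and the second overlapped between groups. The difference of their effects was 1.22 (adjusted p = 0.052) with all arrays and 1.39 (adjusted p = 0.00544) without replicate 2. For the Rab11fip3 pair of ILMN_1227748 and ILMN_2638520 it was −1.34 (adjusted p = 0.178) and −0.99 (adjusted p = 0.0343).

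The median size of the difference between sister effects in Bak/Bax DKO was 0.247 over the flanking pairs and 0.249 over all pairs. Differences larger than 1 were found in 16 of 85 pairs (18.8%) within 5 Mb and in 3 of 66 (4.55%) beyond it, against 12.5% of all pairs. Without replicate 2 these were 4 of 85 (4.71%) and 0 of 66, against 1.35% of all pairs. In Casp9 KO they were 1 of 85 (1.18%) and 3 of 66 (4.55%), against 1.45%.

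Pairs whose probes overlap in position were looked at on their own after the Ndufb10 values were seen. Of 645 overlapping pairs in the whole table, 2 (0.31%) differed by more than 1 in Bak/Bax DKO without replicate 2, and 1 by more than 3, the Ndufb10 pair at 5.41. With replicate 2 included, 65 (10.1%) differed by more than 1 and 5 by more than 3. Of the 19 overlapping flanking pairs, the next was that of Elob, a subunit of the elongin complex, at −2.83 (adjusted p = 0.554). Its probe ILMN_2744326 read 12.46, 4.36 and 12.58 in Bak/Bax DKO, so that this value rests on replicate 2. In Casp9 KO none of the 645 pairs differed by more than 0.75.

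Of the 19 genes with a call in Bak/Bax DKO, 12 had more than 1 measured probe. Every measured probe was called in 3 of them (Ndufb10, Baiap3 and Prss41), and 6 had probes of both signs. The other 7 were measured by 1 probe only.

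**Figure D4:**
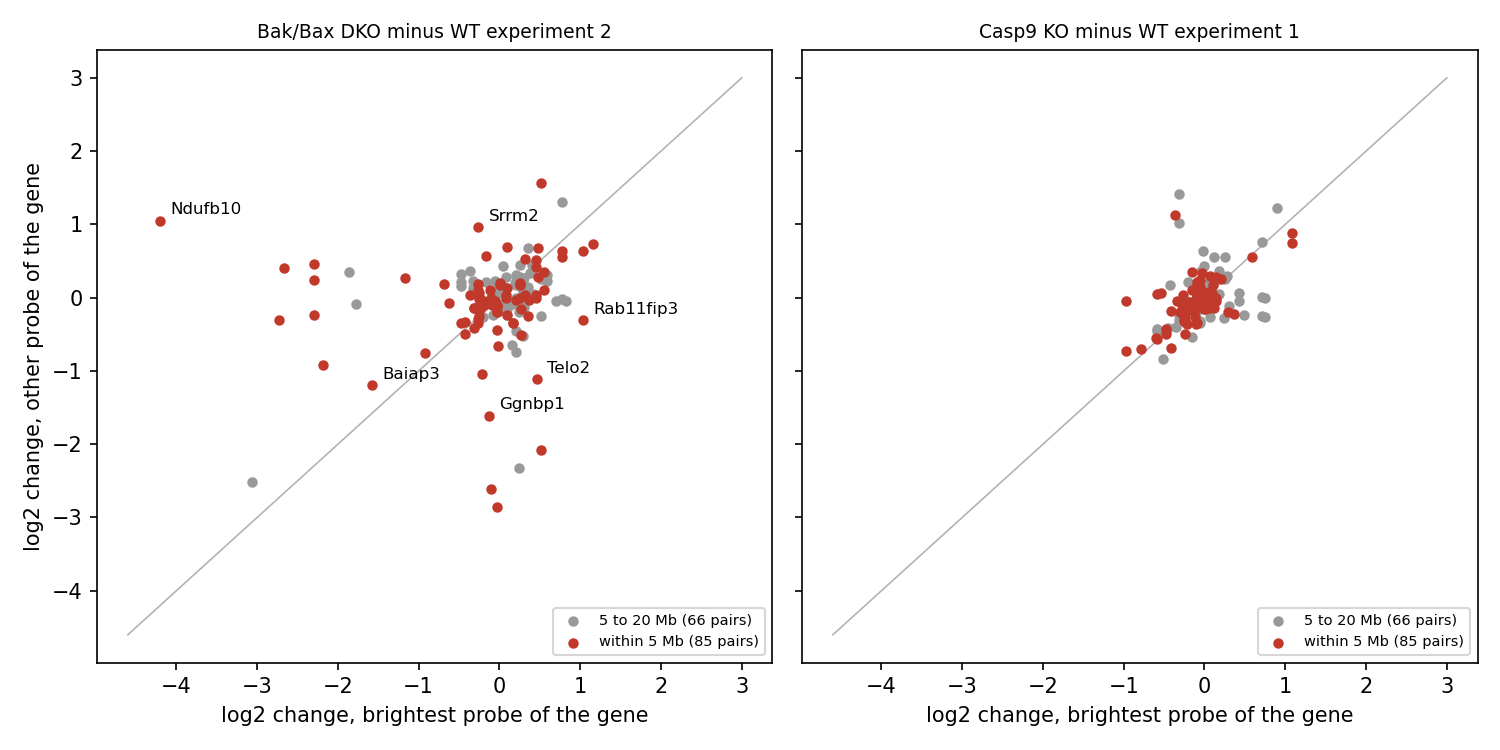
Log2 change of the brightest probe of a flanking gene (horizontal axis) against that of each other measured probe (vertical axis), for Bak/Bax DKO minus WT experiment 2 (left) and Casp9 KO minus WT experiment 1 (right). Each of the 151 points is a pair of probes, red within 5 Mb of Bak1 (85 pairs) and grey beyond (66 pairs), and the line marks equal change; the Ndufb10 pair sits at −4.20 and 1.05.

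The flanking genes were also grouped by role, and the counts of each group stand against 1.82% of all probes called, 1.43% risen and 0.392% fallen. With 13 to 39 probes a group, the first of these shares comes to under 1 probe in each, so that a count of 0 or 1 is no result about a group. Of 39 measured probes on the list of ribosome and RNA genes, 1 rose in Bak/Bax DKO, and the median log2 change was 0.01, against 0.084 over all probes. That probe was of Nubp2, whose known role in iron-sulfur clusters is neither ribosomal nor in RNA, so no ribosome or RNA gene proper passed. Srrm2 had 0.96 (adjusted p = 0.0549) and Snrpc, a protein of the U1 splicing particle, −0.54 (adjusted p = 0.208).

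Of 31 probes for signalling genes, 1 fell (Mapk13, median −0.01). Pim1 had 0.69, as above, and Sik1, a kinase related to AMPK, −0.53 (adjusted p = 0.0615). Of 36 probes for metabolism, mitochondria and chaperones, 1 rose and 2 fell, which were the Ndufb10 probes and Telo2 (median 0.16). Decr2, an enzyme of peroxisomal fatty acid breakdown, had 0.44 (adjusted p = 0.181). Of 25 probes for cell cycle and DNA repair, 1 rose (Cul9, median 0.16). Its relative Cul7 had 0.68 (adjusted p = 0.0868). Haghl, also on that list, had 0.68 (adjusted p = 0.165), but it is named for its likeness to a hydrolase, not for the cell cycle or repair.

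None of 27 probes for chromatin and transcription passed in limma (median 0.13), where 3 had an unadjusted p under 0.05, against 14.9% of all probes. The smallest p-values there were those of Lemd2, given above, Zfp758 at −0.63 (adjusted p = 0.133) and Akap8, an anchoring protein of the nucleus, at −0.65 (adjusted p = 0.169). None of 13 blood and immune probes passed in limma (median 0.04), where 2 had an unadjusted p under 0.05, against the same 14.9%. Abcg1, a cholesterol exporter, had 0.86 (adjusted p = 0.219), Pi16 0.52 (adjusted p = 0.335) and Fgd2 0.46 (adjusted p = 0.336).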

How the data were processed

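The 4 groups were profiled with 3 arrays each on the Illumina Mouse WG6V2 BeadChip. At most 250 ng of RNA was labelled per sample, and the number of arrays limits the precision. The authors deposited bead intensity per probe, normalized log2 values and a detection p-value column, which rises with intensity and was read as 1 minus p. GenomeStudio and limma were used per the submitters' processing notes, with no version given. The deposited log2 values differed by at most 0.0197 from neqc (offset 16) run again on the deposited intensity.

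limma 3.58.1 in R 4.3.3 fitted 4 group means to 12 arrays over 18867 measured probes (8 residual degrees of freedom), two-sided, with Benjamini-Hochberg adjustment over all of them. Sister-probe differences were fitted alike over 6956 pairs. The fits were tried on simulated data in which a probe had the same spread on every array. Those data held no array like Bak/Bax DKO replicate 2, so the fits were not tested for such a case. Probes named are Bak1, the 12 largest rises and 12 largest falls called in Bak/Bax DKO with their sister probes, the 5 nearest genes on each side, called pairs, up to 6 calls of each sign in Casp9 KO and in the difference of effects, up to 3 members of each role list by p, and the window edges. The members and lists were chosen with earlier results of these data known. Names came from Entrez ID or accession for 428 of the 443 probes and from the files' symbol for 15. RefSeq places the gene of 5 probes on another chromosome, and the authors marked 39 for filtering. Replicate numbers were not used to pair the samples in the main fit. Deviations of same-numbered arrays correlated at 0.114, 0.047 and 0.06 in experiment 2 and at 0.204, −0.075 and 0.065 in experiment 1. Each Bak/Bax DKO array correlated best with the wild type of its own number. Whether the numbers pair these samples is thus not settled, and a fit with the number as a block is given below. The progenitor marker list is reported in part only; the rest of it is not reported here.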

Additional observations from a re-analysis of the deposited data

Results flagged for a closer look

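At 17 flanking probes the change in Bak/Bax DKO against WT experiment 2 differed from the change in Casp9 KO against WT experiment 1 by the test of the difference itself (limma, adjusted p under 0.05, 1.49% of all probes). The difference was negative for Ndufb10 (ILMN_2691261, −4.14), Zfp945 (−3.44), Eme2 (−2.28), Rab44 (−2.24), Zfp52 (−2.0), Tedc2 (−1.97), Gm5931 (−1.88), Baiap3 (ILMN_2435996, −1.61), Gm1604b (−1.56) and Mapk13 (−1.28). It was positive for Prss41 (0.83 and 1.21), Cul9 (1.01), Rab11fip3 (1.44), Nubp2 (1.56), Afdn (1.57) and Meiob (2.99). Gm1604b, 19.865 Mb below Bak1 and marked by the authors for filtering, was the one that did not pass in Bak/Bax DKO alone. Its probe read 6.13, 6.72 and 6.15 in Bak/Bax DKO and 6.82, 7.63 and 7.19 in WT experiment 2, a log2 change of −0.88 (adjusted p = 0.0841), against 0.68 in Casp9 KO (adjusted p = 0.263). The groups did not overlap in Bak/Bax DKO. Experiment and beadchip are the same for both groups of a comparison and differ between the comparisons.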

How the results depend on the processing

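None of the 22 probes called in Bak/Bax DKO changed direction under the alternatives run. Running neqc again, no background correction, no detection filter, a stricter filter of 6 arrays and, chosen after seeing the data, leaving out probes marked for filtering gave 22, 20, 22, 17 and 18 calls. Calls moved with the estimate of the spread and with the scaling, and the cause was not tested. Centring arrays on the median without the quantile step moved the median of all probes in Bak/Bax DKO to −0.138, against 0.084. This centring gave 14 calls there (3.16%, against 0.811% of all probes), 3 risen and 11 fallen, against 9 and 13. It gave 1 call in Casp9 KO (main 3) and 11 in the difference of effects (main 17). With only the 6 arrays of the comparison, each comparison has its own estimate of the spread and fewer degrees of freedom. Bak/Bax DKO then had 6 calls (main 22), all 6 within 5 Mb (main 17). Casp9 KO had 10 (main 3), so the 2 counts moved in opposite directions. With array weights the counts were 43 in Bak/Bax DKO (9.71%, against 2.94% of all probes), 34 within 5 Mb, 29 in Casp9 KO (6.55%, against 6.28% of all probes) and 43 in the difference.

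With the replicate number as a block, Bak/Bax DKO had 11 calls, 10 within 5 Mb, Casp9 KO 1 and the difference 7; in Bak/Bax DKO each array correlated best with its own number, in Casp9 KO 1 of 3. Sister-probe calls in Bak/Bax DKO (main 1) were 2 without background correction, 2 with median centring, 2 with array weights and 9 with no detection filter; in Casp9 KO (main 0) array weights gave 2.

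Leaving out 1 array gave 12 to 37 calls in Bak/Bax DKO, 2 to 12 in Casp9 KO, 9 to 39 in the difference, 11 to 30 within 5 Mb, and 1 to 3 and 0 to 1 sister pairs in Bak/Bax DKO and Casp9 KO. The highest counts came without Bak/Bax DKO replicate 2. For Bak/Bax DKO, shares over all probes are given for no background correction, median centring, array weights and the fit without its replicate 2. For the other alternatives the counts alone do not show whether the flanking share stayed above that of all probes. Bak/Bax DKO had 12 calls without WT experiment 2 replicate 1 and 14 without WT experiment 2 replicate 3, and within 5 Mb 11 without WT experiment 2 replicate 1. Casp9 KO had 9 without Casp9 KO replicate 2. The difference had 11 without WT experiment 2 replicate 1, and 9 without each of WT experiment 2 replicates 2 and 3, Casp9 KO replicates 1 and 3, and WT experiment 1 replicates 1, 2 and 3. Levels of probes not above background are known only as bounds.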
